A study of Mus musculus with 6 samples.

Results

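Among 24421 genes counted in cultured cells of the mouse inner ear, 6 neighbours on chromosome 13 are described here: *Nnt*, *Gm7120*, *Fgf10*, *Paip1*, *Mrps30* and *4833420G17Rik*. They were chosen by symbol for lying close to *Nnt*, with the difference between knockout and wildtype cells already known for *Nnt*, *Gm7120* and *Fgf10*. The values of the 6 genes are therefore a description without a test. *Nnt* and *Fgf10* transcripts were less abundant in every knockout culture than in any wildtype culture, *Gm7120* transcripts were more abundant in every one, and the genotypes overlapped for *Paip1*, *Mrps30* and *4833420G17Rik*.

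To compare transcript levels between knockout and wildtype mice, the study sequenced RNA from primary cultures labelled as endothelial cells, grown from the stria vascularis, the vascularised tissue of the cochlear lateral wall. The study's methods describe taking the spiral ligament along with the stria vascularis for culture. Untreated cells of mice on postnatal days 10 to 12 gave 3 cultures per genotype, purified by cell sorting according to the methods of the study, with several mice pooled per culture and 1 poly(A)-enriched library each. The knockout mice carry a targeted gene disruption in the whole animal. The labels give C57BL/6N as the strain background of all 6 samples, whereas the methods of the study name C57BL/6J as the strain to which the mice were backcrossed, and the strain name of the line also carries a 129P2 part. Nothing in these sources ties a single culture to a substrain.

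Normalized counts are reads per gene scaled to a common library size. Between 25587097 and 29126232 reads per library fell on genes. Wildtype replicate 2 stood apart on the first principal component, at 117 against -31.9 to -6.48 for the other libraries. Knockout replicates 1 and 2 were much closer to each other than any other pair, with a chi-square per degree of freedom of 4.91 against 90.1 to 398, although still further apart than sampling noise. Of the 12 endothelial markers, 6 averaged 100 normalized counts or more. *Tie1* and *Cldn5* had at most 3 reads in each library and *Pecam1* had at most 8 reads. In wildtype cultures the summed endothelial markers reached 15835 to 23440 normalized counts and the summed fibroblast markers reached 175759 to 284893. In bulk RNA, fewer cells of a type and less RNA per cell cannot be told apart.

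The 6 genes have separate roles. *Nnt* encodes nicotinamide nucleotide transhydrogenase, an enzyme of the inner mitochondrial membrane that uses the proton gradient to pass hydride from NADH to NADP+ and so supplies NADPH for peroxide removal. *Fgf10* encodes a secreted growth factor made mainly by mesenchyme, which signals to epithelia through FGFR2 and is needed for the development of limb, lung and inner ear. *Paip1* encodes a partner of poly(A)-binding protein that promotes translation, *Mrps30* encodes a protein of the mitochondrial ribosome, *Gm7120* encodes the transmembrane protein TMEM267, and *4833420G17Rik* is a little-studied protein-coding gene. The C57BL/6J substrain is known for a deletion of several internal exons of *Nnt*, and the mouse reference mm10 (GRCm38) is a C57BL/6J genome. Reads from those exons of an intact allele have no place in this reference, so the count of such an allele is understated.

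Along the chromosome the genes stand in the order *Mrps30*, *Fgf10*, *Nnt*, *Paip1*, *4833420G17Rik* and *Gm7120* and span 1.23 Mb of GRCm38. *Mrps30* (chr13:118378381-118387252) and *Nnt* (chr13:119335448-119408997) lie on the minus strand. *Fgf10* (chr13:118669791-118792115), *Paip1* (chr13:119428601-119458218), *4833420G17Rik* (chr13:119462768-119486120) and *Gm7120* (chr13:119488039-119611059) lie on the plus strand. The gaps are 283 kb from *Mrps30* to *Fgf10* and 543 kb from *Fgf10* to *Nnt*, but only 19.6 kb from *Nnt* to *Paip1*, 4.55 kb from *Paip1* to *4833420G17Rik* and 1.92 kb from there to *Gm7120*. The genes with the genotypes apart and those with the genotypes overlapping are therefore interspersed, with *Paip1* and *4833420G17Rik* between *Nnt* and *Gm7120*.

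Upstream sequences of RefSeq (GRCm38.p6) were matched for 5 of the 6 genes, all but *Nnt*. Those of *Fgf10* and *Gm7120* are shown because their transcript levels separated the genotypes in opposite directions, and that of *4833420G17Rik* because it starts next to *Gm7120* and its levels overlapped. Capitals mark matches on either strand to the GC box GGGCGG (reverse CCGCCC) or to the ETS core CCGGAA (reverse TTCCGG). All 3 genes are on the plus strand.
*Fgf10*, chr13:118714449-118714698: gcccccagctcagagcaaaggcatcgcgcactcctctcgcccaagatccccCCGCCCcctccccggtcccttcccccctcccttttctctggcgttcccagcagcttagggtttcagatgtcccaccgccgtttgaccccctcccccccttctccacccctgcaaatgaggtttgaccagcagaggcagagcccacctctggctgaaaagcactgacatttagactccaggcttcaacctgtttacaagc
*Gm7120*, chr13:119488384-119488472: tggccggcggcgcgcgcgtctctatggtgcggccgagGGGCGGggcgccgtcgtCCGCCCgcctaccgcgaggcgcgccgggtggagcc
*4833420G17Rik*, chr13:119462509-119462758: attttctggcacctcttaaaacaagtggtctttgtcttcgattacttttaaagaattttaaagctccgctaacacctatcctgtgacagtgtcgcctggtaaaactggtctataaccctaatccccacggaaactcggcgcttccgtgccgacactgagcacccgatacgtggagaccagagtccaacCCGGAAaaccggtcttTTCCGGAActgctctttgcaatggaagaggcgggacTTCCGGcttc

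The 250 bases before the RefSeq start of *Fgf10*, which lies within the longer span given above, were 61.2% G or C, held 8 CpG and matched the GC box at 1 place. Those of *4833420G17Rik* were 49.6% G or C, held 15 CpG and had 4 ETS core matches, of which a pair shares the palindrome at the capital run TTCCGGAA. The 89 bases shown for *Gm7120*, before its more downstream start, held 2 GC boxes and also lie within the longer span given above. They are the part of that 250-base window outside annotated untranslated regions, here of *3110070M22Rik*. The 250 bases before the more upstream start, not shown, held 1 GC box, and 0 in the 184 bases outside such regions. Among 32841 promoter windows the medians were 52.4% G or C and 6 CpG. A GC box was present in 32.7% of all 250-base and 23.3% of all 89-base windows, and an ETS core in 12% and 6.76%. No CCAAT (present in 33.9% of 250-base windows) or TATAAA (12.4%) was found on either strand in the printed stretches. These matches describe letters in a window, and binding was not measured.

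*Nnt* (ENSMUSG00000025453.18) had normalized counts of 1225, 1277 and 1393 in knockout replicates 1, 2 and 3. The wildtype cultures had 3555, 4514 and 3818. The genotypes did not overlap, and the lowest wildtype culture was 2.55 times the highest knockout culture. The means were 1298 ± 85.9 and 3962 ± 495 normalized counts (SD, n = 3), a level 3.05-fold lower in knockout cells (log2 fold change -1.61, SE 0.14). Replicates of a genotype lay close together, with the highest at 1.14 times the lowest knockout culture and at 1.27 times the lowest wildtype culture, so the step between genotypes was larger than the spread within either. The knockout cultures kept 32.8% of the wildtype mean. At least 1153 reads stood behind each value. The annotation holds a second gene model under the same symbol within the same span (ENSMUSG00000116207.1, chr13:119335528-119408952), and how reads were shared between the models is not given in the sources used here.

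*Gm7120* (ENSMUSG00000074634.12, current symbol *Tmem267*) went the other way. It had 822, 764 and 889 normalized counts in the knockout cultures against 151, 154 and 179 in the wildtype cultures. All knockout cultures lay above all wildtype cultures, the lowest of them at 4.28 times the highest wildtype value. The means were 825 ± 62.5 and 161 ± 15.4 normalized counts (SD, n = 3), a level 5.12-fold higher in knockout cells (log2 fold change 2.36, SE 0.16). The wildtype values rest on 149 to 167 reads per library. On the opposite strand *3110070M22Rik* shares 162 of 5419 exon bases with *Gm7120* (2.99%), and *Gm48265* shares 3.34%. Libraries were made with a stranded kit, but the strand setting of the counting is not given in the sources used here, so reads of the shared bases cannot be assigned to one of the genes.

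*Fgf10* (ENSMUSG00000021732.14) had 97.7, 65.1 and 147 normalized counts in knockout cultures. The wildtype cultures had 693, 524 and 606. Again the genotypes did not overlap, with the lowest wildtype culture at 3.57 times the highest knockout culture. The mean was 103 ± 41.1 in knockout and 608 ± 84.6 in wildtype cells (SD, n = 3), 5.89-fold lower (log2 fold change -2.56, SE 0.33). Among the knockout cultures the highest value was 2.26 times the lowest, a wider spread than for *Nnt* (1.14) or *Gm7120* (1.16), on 70 to 155 reads per library. An antisense gene, *Gm16263*, covers 123 of its exon bases (2.67%).

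**Figure D1:**
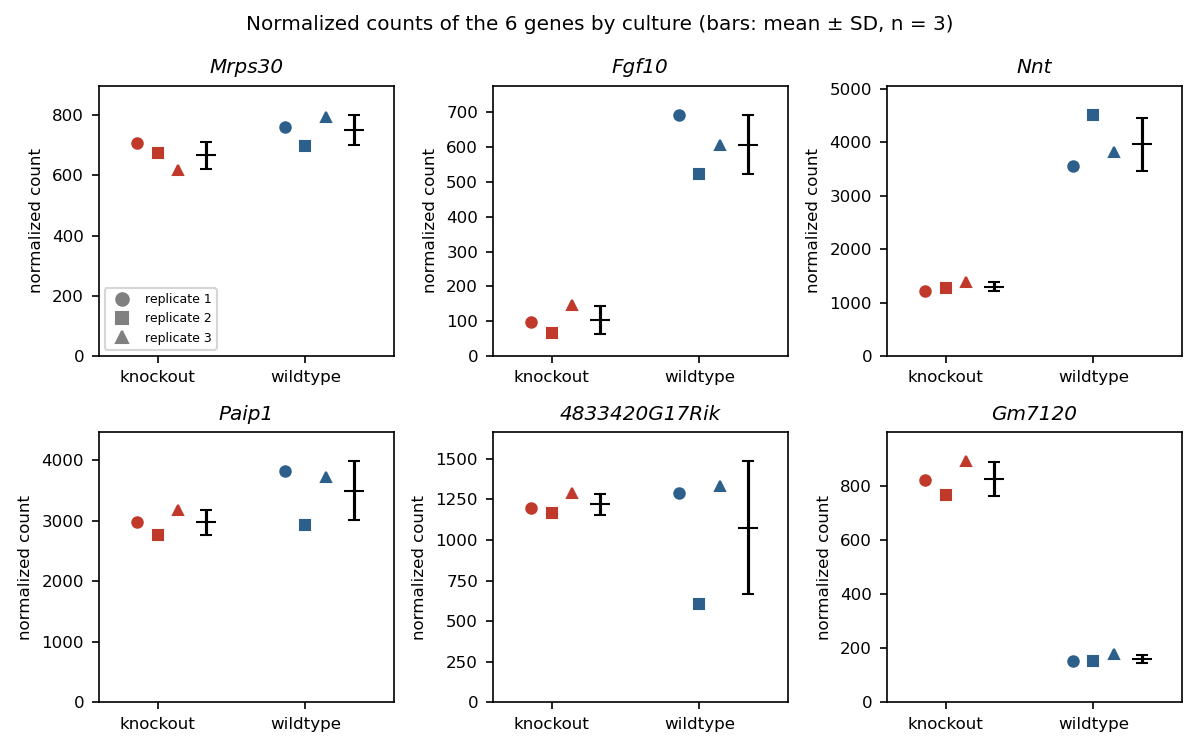
Normalized counts of the 6 genes in each culture, one panel per gene with its own linear axis from 0, points for single cultures and bars for the mean ± SD of 3 cultures. *Nnt* and *Fgf10* lie lower and *Gm7120* lies higher in all knockout cultures, and the other 3 genes overlap between genotypes.

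*Paip1* showed 2973, 2758 and 3175 normalized counts in knockout and 3813, 2931 and 3727 in wildtype cultures. The genotypes overlapped, because wildtype replicate 2 fell among the knockout values. The means were 2968 ± 209 and 3490 ± 486 normalized counts (SD, n = 3; log2 fold change -0.23, SE 0.14). Without wildtype replicate 2 the log2 fold change was -0.35 (SE 0.12).

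*4833420G17Rik*, which ends 1.92 kb before the first base of *Gm7120*, had 1199, 1168 and 1287 normalized counts in knockout cultures. It had 1286, 603 and 1333 in wildtype cultures. Wildtype replicate 2 was the low value, so that the highest wildtype culture was 2.21 times the lowest, and the other 5 cultures lay between 1168 and 1333. The means were 1218 ± 61.9 and 1074 ± 409 normalized counts (SD, n = 3; log2 fold change 0.18, SE 0.30). This direction depended on wildtype replicate 2, since the log2 fold change without it was -0.11 (SE 0.11).

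*Mrps30* had 707, 676 and 619 normalized counts in knockout cultures and 761, 697 and 795 in wildtype cultures. The wildtype values overlapped the knockout values by wildtype replicate 2 alone. The means were 667 ± 44.7 and 751 ± 50.0 normalized counts (SD, n = 3; log2 fold change -0.17, SE 0.13). The gene *B430218F22Rik* on the other strand shares 9.35% of the *Mrps30* exon bases, and *Gm9752* shares 10.7% of those of *4833420G17Rik*.

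Of the 6 genes, 3 did not overlap between genotypes, beside 19.9% of all genes tested, and these were 2 lower genes (beside 9.57%) and 1 higher gene (beside 10.3%). With edgeR's test over 13479 genes, *Nnt* and *Gm7120*, 2 of the 6, were past an adjusted p of 0.05, beside 0.0668% of all genes, 0.0371% lower and 0.0297% higher. It was 2 as well with limma-voom (0.0742%). The choice of the genes used this comparison, so nothing is read from either count. The number of the 6 was 3, with *Fgf10* added, under DESeq2's Wald test (4.69% of genes past the threshold) and without wildtype replicate 2 (2.88%). It was 0 without knockout replicate 1 (0.00729%), 2 (0.00733%) or 3 (0%) and without wildtype replicate 1 (0.0293%) or 3 (0.0146%), and 0 with knockout replicates 1 and 2 summed (0.00731%). With these 2 cultures summed the log2 fold changes were -1.58 (SE 0.18) for *Nnt*, 2.38 (SE 0.20) for *Gm7120* and -2.43 (SE 0.35) for *Fgf10*.

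To compare levels between genes, normalized counts were divided by the length of all annotated exons. In wildtype cells *Paip1* was highest, at 1010 ± 141 normalized counts per kb of exon (SD, n = 3), followed by *Nnt* at 563 ± 70.4. Next came *4833420G17Rik* at 220 ± 83.7, *Fgf10* at 132 ± 18.4 and *Mrps30* at 113 ± 7.5, whose neighbouring ranges overlapped. *Gm7120* was last in wildtype cells, at 29.7 ± 2.84 per kb.

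In knockout cells *Paip1* was again first, at 859 ± 60.4 normalized counts per kb of exon (SD, n = 3). *4833420G17Rik* followed at 250 ± 12.7, ahead of *Nnt* at 184 ± 12.2 and *Gm7120* at 152 ± 11.5. *Mrps30* stood at 100 ± 6.71, and *Fgf10* was last at 22.4 ± 8.93. No neighbours in this order overlapped. *Gm7120* thus stood above *Mrps30* and *Fgf10* in knockout cells and below both in wildtype cells.

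**Figure D2:**
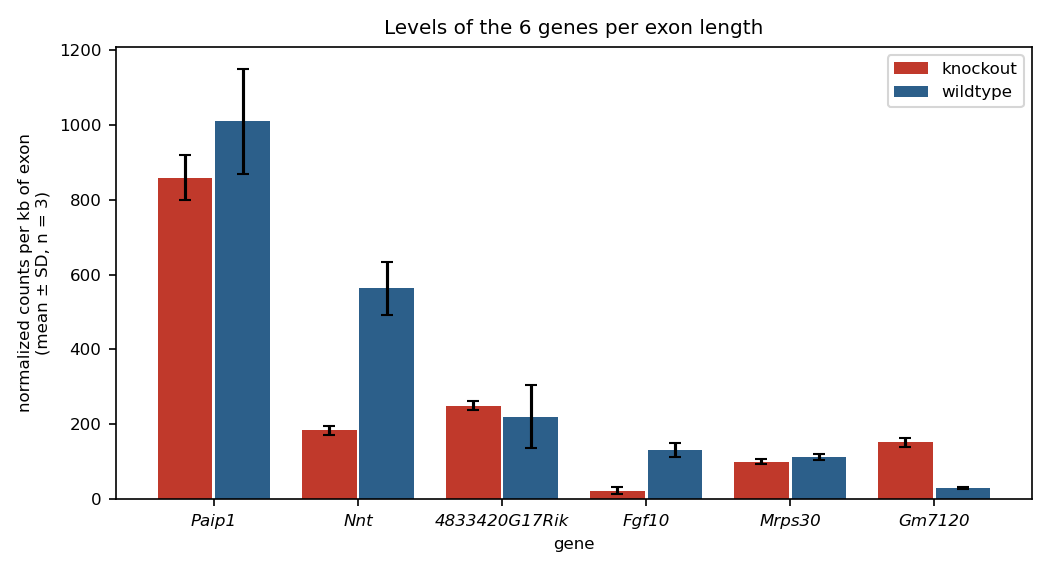
Normalized counts per kb of exon for the 6 genes, bars for the mean and error bars for the SD of 3 cultures per genotype, on a linear axis from 0. *Nnt* is second in wildtype cells (563) and behind *4833420G17Rik* in knockout cells (184), and *Gm7120* is last in wildtype cells (29.7).

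The other genes near *Nnt* were examined for differences between genotypes. Within 1 Mb of its start the table held 22 genes, of which 10 had no reads and 11 were tested, the 6 described above and 5 others. None of these 5 passed edgeR's adjusted threshold, while 2 of them had an unadjusted p under 0.05, a level that 11.8% of all genes reached. DESeq2 called 1 of the 5 and limma-voom called 0. Their median log2 fold change was -0.03, beside -0.02 over all genes, and 0.35 without wildtype replicate 2.

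*Ccl28*, which encodes a chemokine of mucosal epithelia and starts downstream of *Gm7120*, had 167, 153 and 217 normalized counts in knockout cultures. It had 19.6, 2.06 and 23.5 in wildtype cultures. The genotypes did not overlap, and wildtype replicate 2, with 2 reads, was the lowest. The log2 fold change was 3.56 (SE 0.74, adjusted p = 0.125 in edgeR). Without wildtype replicate 2 it was 3.04 (SE 0.31, adjusted p = 0.0195 in edgeR), and DESeq2 gave an adjusted p of 2.44e-05 with all libraries. Leaving out any other culture gave adjusted p values from 0.193 to 0.494 in edgeR.

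*3110070M22Rik*, whose start overlaps that of *Gm7120* on the opposite strand, had 39.3, 27.0 and 30.3 normalized counts in knockout against 11.7, 13.4 and 19.3 in wildtype cultures. The groups did not overlap, at means of 32.2 ± 6.39 and 14.8 ± 3.95 (SD, n = 3). The log2 fold change of 1.11 (SE 0.39) did not pass the threshold (adjusted p = 0.341 in edgeR). Its counts rest on 12 to 37 reads per library, and the part of *Gm7120* reads in them was not tested.

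The remaining neighbours overlapped between genotypes. *Hmgcs1*, the cytosolic synthase that begins the mevalonate pathway, had a log2 fold change of -0.12 (SE 0.34, adjusted p = 0.929 in edgeR), with wildtype replicate 2 highest at 6757 normalized counts, and 0.35 (SE 0.18) without that culture. The kinase gene *Nim1k* had -0.09 (SE 0.30, adjusted p = 0.937 in edgeR) and 0.19 (SE 0.26) without wildtype replicate 1, and the zinc finger gene *Zfp131* had -0.03 (SE 0.13, adjusted p = 0.947 in edgeR).

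**Figure D3:**
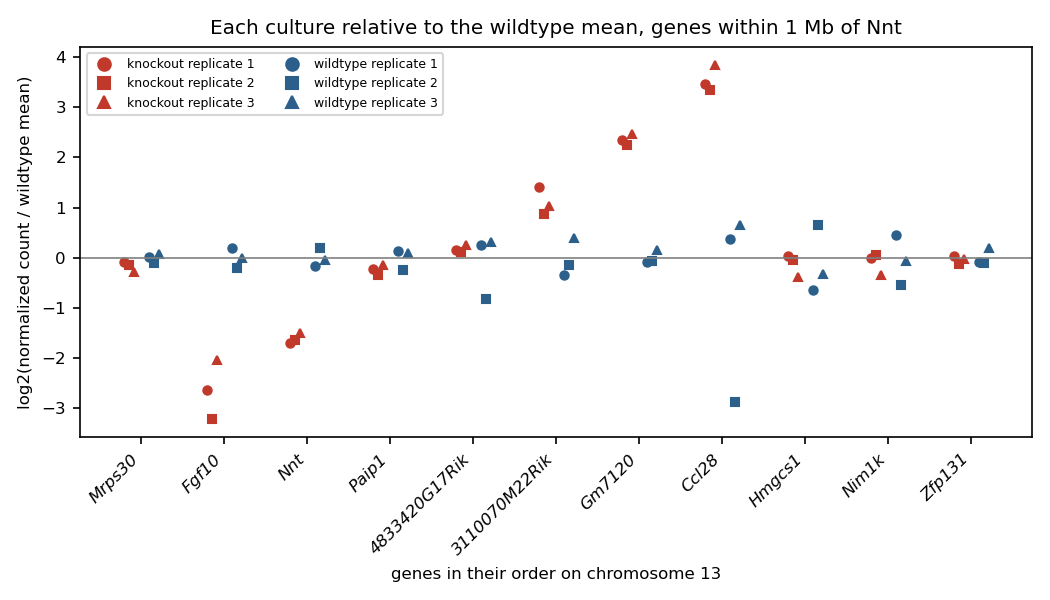
Genes tested within 1 Mb of *Nnt* in chromosome order, with each culture's normalized count relative to the wildtype mean on a log2 axis (red, knockout, and blue, wildtype; the marker shape gives the replicate). *Fgf10* and *Nnt* lie below 0, and *3110070M22Rik*, *Gm7120* and *Ccl28* lie above 0 in all 3 knockout cultures, with wildtype replicate 2 far below the other wildtype cultures for *Ccl28*.

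Within 5 Mb of *Nnt* there were 34 genes in the table and 19 tested, of which *Nnt* and *Gm7120* were past the threshold. The 13 others had a median log2 fold change of -0.09, and 0 passed in edgeR, 1 in DESeq2 (*Ccl28*) and 2 at an unadjusted p under 0.05. Of the better expressed among them, the genes with the widest differences did not pass. *Fst*, the activin antagonist follistatin, had a log2 fold change of 0.74 (SE 0.46, adjusted p = 0.599 in edgeR), and *Emb*, which encodes the adhesion protein embigin, had -0.45 (SE 0.37, adjusted p = 0.707 in edgeR). The integrin gene *Itga1* had -0.20 (SE 0.95), which turned to 1.44 (SE 0.64) without wildtype replicate 2. *Pelo*, a ribosome rescue factor, had 0.14 (SE 0.23) and -0.05 (SE 0.16) without wildtype replicate 3.

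**Figure D4:**
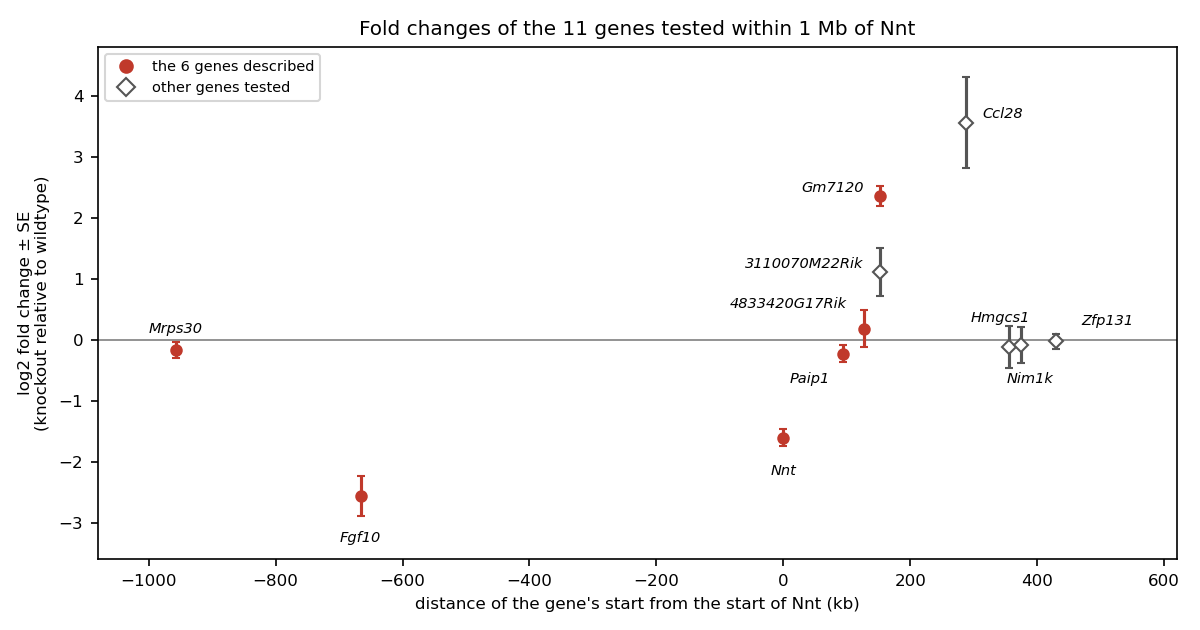
Log2 fold change with its SE for the 11 genes tested within 1 Mb of *Nnt*, against the distance in kb of each gene's start from that of *Nnt*. *Fgf10* and *Nnt* lie below 0, *Gm7120*, *3110070M22Rik* and *Ccl28* lie above 0, and the other 6 lie between -0.23 and 0.18.

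The genes of 4 pathways were described beside the member that takes part in each. For *Nnt* the list held 20 other genes of mitochondrial NADPH supply and peroxide removal, all tested. Of these, 0 passed edgeR's adjusted threshold and 5 had an unadjusted p under 0.05 (11.8% of all genes). Their log2 fold changes ran from -0.84 to 0.48 around a median of -0.07. DESeq2 called 0 of them. The number at an unadjusted p under 0.05 was 1 without knockout replicate 1, 0 without knockout replicate 2, 3 without knockout replicate 3 or wildtype replicate 1, and 7 without wildtype replicate 2. The share over all genes at this level was not taken with a culture left out, so nothing is read from these numbers.

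*Me2*, a mitochondrial malic enzyme, had 1659, 1549 and 1677 normalized counts in knockout and 3226, 1689 and 3826 in wildtype cultures, without overlap although wildtype replicate 2 came close. Its log2 fold change was -0.84 (SE 0.29, adjusted p = 0.339 in edgeR) and, without wildtype replicate 2, -1.12 (SE 0.12, adjusted p = 0.0226 in edgeR). Glutathione reductase, *Gsr*, had -0.64 (SE 0.19, adjusted p = 0.265 in edgeR), and the peroxiredoxin gene *Prdx5* had 0.48 (SE 0.20, adjusted p = 0.420 in edgeR). *Idh2*, the mitochondrial NADP+-dependent isocitrate dehydrogenase, had -0.02 (SE 0.28).

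For *Fgf10* the list held 17 receptors, related ligands and genes that FGF signalling induces, of which 14 were tested. None passed edgeR's adjusted threshold, 2 had an unadjusted p under 0.05, and DESeq2 called 1, *Spry1*. The median log2 fold change was 0.44, beside -0.02 over all genes. Of the 14 values 10 were above 0, beside 6481 of all 13479 genes tested. Without wildtype replicate 2 the median was 0.86 over 15 genes, beside 0.0 over all genes, and 0 passed in edgeR. In that setting 7 of the 15 had an unadjusted p under 0.05, and the share over all genes at this level was not taken. Leaving out another culture gave medians of 0.30 to 0.40. The main receptor gene *Fgfr2* had -0.26 (SE 0.73), which turned to 1.07 (SE 0.33) without wildtype replicate 2, and *Fgfr1* had 0.01 (SE 0.20). *Fgf3* had no reads in any library, and *Fgf22* and *Fgfbp1* had too few to be tested.

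*Fgf7*, the closest relative of *Fgf10* among the tested ligands, had 3166, 3158 and 6112 normalized counts in knockout and 926, 2805 and 2788 in wildtype cultures. The groups did not overlap, and the log2 fold change was 0.93 (SE 0.48, adjusted p = 0.510 in edgeR). *Spry1*, a feedback inhibitor of FGF signalling, had 664, 581 and 190 normalized counts against 145, 98.0 and 104. Knockout replicate 3 lay near the wildtype cultures for this gene, and the log2 fold change was 2.05 (SE 0.48, adjusted p = 0.166 in edgeR and 0.00188 in DESeq2). The transcription factor genes *Etv4* and *Etv5* had log2 fold changes of 1.86 (SE 0.67, adjusted p = 0.358 in edgeR) and 1.03 (SE 0.52, adjusted p = 0.501 in edgeR), and 2.76 (SE 0.52) and 1.64 (SE 0.42) without wildtype replicate 2.

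For *Paip1*, all 16 genes of poly(A)-binding and cap-binding factors were tested and 0 passed in edgeR or DESeq2. Of the 16, 0 had an unadjusted p under 0.05. Without wildtype replicate 2 it was 5, and the share over all genes at this level was not taken for that setting. The log2 fold changes of the 16 ran from -0.34 for the helicase gene *Eif4a2* to 0.35 for the poly(A)-binding protein gene *Pabpc1*, with a median of 0.08. For *Mrps30*, the other 76 tested genes of the mitochondrial ribosome had a median log2 fold change of 0.02 and ran from -0.29 (*Mrps15*) to 0.45 (*Mrps11*). None of the 76 passed in edgeR or DESeq2, and 1 had an unadjusted p under 0.05. That gene was *Mrps6*, named after its value was seen, with 0.40 (SE 0.11).

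**Figure D5:**
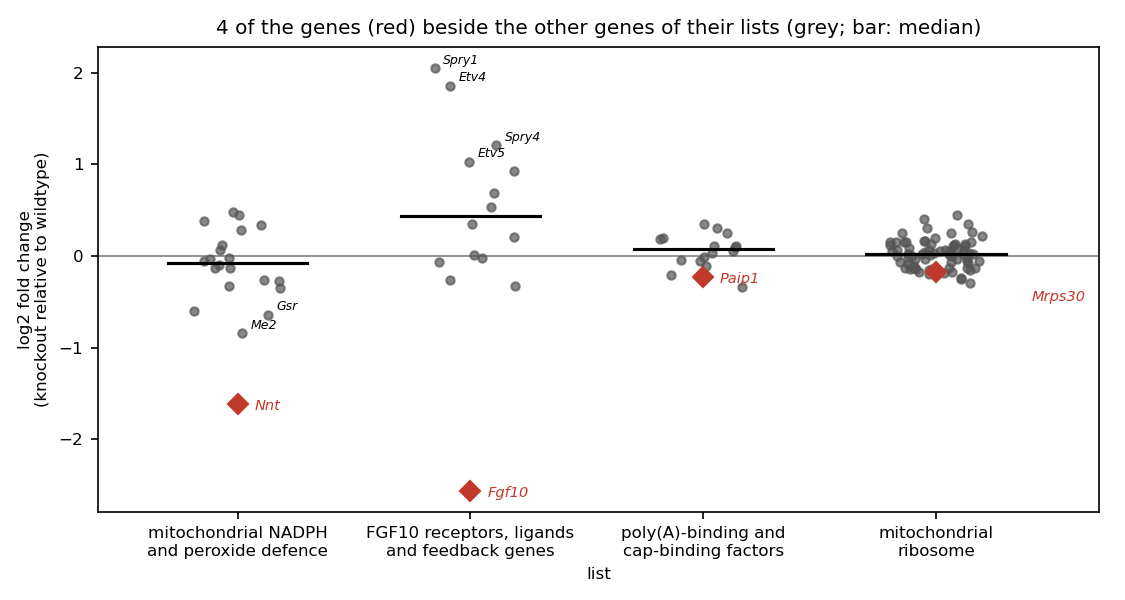
Log2 fold changes of *Nnt*, *Fgf10*, *Paip1* and *Mrps30* (red) beside the other tested genes of 4 lists (grey, with a bar for the median). *Nnt* (-1.61) and *Fgf10* (-2.56) lie below every other gene of their lists, and *Paip1* and *Mrps30* lie within the range of theirs.

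Genes known to differ between C57BL/6 substrains form a list of 6, *Nnt* among them, of which 3 were tested. *Wdfy1*, an endosomal adaptor gene, had a mean of 564 ± 24.6 normalized counts in knockout and 2530 ± 200 in wildtype cultures (SD, n = 3). The groups did not overlap, and it was lower in knockout cells (log2 fold change -2.16, SE 0.12, adjusted p = 0.00614 in edgeR). Without knockout replicate 1, 2 or 3 its adjusted p in edgeR was 0.173, 0.165 and 0.0505, at log2 fold changes of -2.14, -2.16 and -2.20. *Cyfip2*, a regulator of actin assembly, had 838, 905 and 644 normalized counts against 2622, 81.5 and 2165. Wildtype replicate 2 lay below all knockout cultures, and the log2 fold change was -1.03 (SE 0.99, adjusted p = 0.751 in edgeR) with it and -1.59 (adjusted p = 0.0226 in edgeR) without it. The other 3 genes, *Crb1*, *Nlrp12* and *Entpd4*, had too few reads to be tested. Whether the cultures differ in their *Nnt* allele, and the part of a substrain difference in these values, was not tested.

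Markers of other cell types were measured beside *Fgf10*, a gene of mesenchymal cells. All 8 fibroblast markers averaged 100 normalized counts or more, and their sum was 224842 to 255524 in knockout and 175759 to 284893 in wildtype cultures. The 8 mural markers summed to 21851 to 24186 and 16230 to 35244. The endothelial list, 6 of 12 at a mean of 100 or more, summed to 16658 to 25741 and 15835 to 23440. Sums were 465 to 992 and 62 to 1252 for the macrophage markers, 71 to 798 and 87 to 1199 for the epithelial markers, and 403 to 684 and 288 to 1147 for the melanocyte markers. These sums overlapped between genotypes for all 6 lists, but they rest mostly on a few abundant genes, and single markers differed. Of the 8 endothelial markers tested, 1 passed in edgeR, the VE-cadherin gene *Cdh5*, which was lower in knockout cells (log2 fold change -4.15, SE 0.31, adjusted p = 0.0133 in edgeR). Without knockout replicate 1, 2 or 3 or wildtype replicate 3 its adjusted p in edgeR was 0.179, 0.179, 0.0642 and 0.103, at log2 fold changes of -4.22 to -4.05. The median of the endothelial list was -0.80, and 0.11 without wildtype replicate 2. Of its 8 values 5 were below 0 and 3 above. Below were *Cdh5*, *Esam* at -3.54 (SE 1.36), *Flt1* at -1.79 (SE 0.5), *Cd34* at -1.17 (SE 0.59) and *Kdr* at -0.42 (SE 1.18). Above were *Eng* at 0.76 (SE 0.55), *Emcn* at 0.68 (SE 1.05) and *Tek* at 0.67 (SE 0.59). Of the 8 markers 3 had an unadjusted p under 0.05, and 2 had no overlap between genotypes, both lower in knockout cultures. DESeq2 called 2, both lower, *Cdh5* and *Flt1* (adjusted p = 0.0104 in DESeq2). Without wildtype replicate 2 *Esam*, *Flt1* and *Cd34* stayed below 0 and *Kdr* turned above 0. With that culture left out edgeR called 2 of the 9 markers tested. These were *Cdh5*, lower, and *Tek*, higher in knockout cells (1.68, SE 0.24, adjusted p = 0.0342 in edgeR). None of the fibroblast or mural markers passed in edgeR, with 1 of each list at an unadjusted p under 0.05 and 1 of each called by DESeq2. Of the fibroblast markers 3 of 8, and of the mural markers 4 of 8, had no overlap between genotypes, all higher in knockout cultures, beside 10.3% of all genes. The proteoglycan gene *Dcn* had 1.00 (SE 0.17, adjusted p = 0.0952 in edgeR and 5.42e-05 in DESeq2), and the receptor gene *Notch3* had 1.24 (SE 0.32, adjusted p = 0.209 in edgeR and 0.0155 in DESeq2). Below 0 were 1 fibroblast marker, *Col1a1* at -3.35 (SE 1.86), and 4 mural markers. The latter were *Acta2* at -3.14 (SE 2.13), *Tagln* at -2.02 (SE 1.42), *Cspg4* at -1.27 (SE 0.88) and *Myh11* at -0.23 (SE 0.41). Leaving out wildtype replicate 2 turned *Col1a1*, *Acta2*, *Tagln* and *Cspg4* to 2.10, 3.63, 1.16 and 0.55, and gave -0.40 for *Myh11*. Without that culture edgeR called 1 gene each of the fibroblast and mural lists, and the adjusted p of *Notch3* was 0.0307. The part of cell composition in the *Fgf10* values was not tested.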

How the data were processed

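The authors deposited whole-number read counts per gene symbol, without normalization, from poly(A)-enriched stranded libraries. The submitters' processing notes name bcl2fastq 2.20.0.422, STAR 2.7.7a, HTSeq 0.13.5, DESeq2 1.26.0 and mm10; the strand setting is not given in the sources used here. Summary lines (22.2% of reads) were left out. Genes were filtered with filterByExpr (minimum count 10), which left 13479, normalized with TMM (factors 0.976 to 1.03) and tested with edgeR 4.0.16 (quasi-likelihood, genotype only, two-sided, Benjamini-Hochberg over all genes, threshold 0.05) in R 4.3.3. SE is the log2 fold change over the square root of F. Errors are SDs over 3 cultures. The p-values set the difference between genotypes against the spread between cultures, which edgeR estimates partly across genes.

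Positions came from GENCODE M21 (24027 of 24421 symbols matched). Named were the 6 genes, listed genes, genes within 1 Mb of *Nnt*, up to 5 more within 5 Mb by size of change, the extremes of the mitochondrial ribosome, and 3 genes each with the profile closest to *Nnt*, *Gm7120* and *Fgf10*. The genes and lists were chosen with earlier results of these data known. Tests were tried on simulated counts in which 200 genes were given a log2 change of 2. At the spread of the real libraries edgeR found 139 of these, and picked 3 further genes in error. The same numbers were 179 and 57 for DESeq2, and 137 and 2 for limma-voom. At a dispersion of 0.01 every tool found all 200, with 10 errors in edgeR, 10 in DESeq2 and 14 in limma-voom. A gene past the threshold in DESeq2 alone is therefore less certain. Alternatives included DESeq2 1.42.0, limma 3.58.1 (voom), other scalings and filters, and each culture left out. The gene targeted in the knockout is not reported here. The authors' other assays were not analysed here.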

Additional observations from a re-analysis of the deposited data

How the results depend on the processing

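The log2 fold changes of the 6 genes moved by less than the spread between replicates under all 14 alternatives, from -1.69 to -1.51 for *Nnt*, 2.29 to 2.43 for *Gm7120*, -2.91 to -2.31 for *Fgf10*, -0.35 to -0.17 for *Paip1*, -0.23 to -0.13 for *Mrps30* and -0.11 to 0.36 for *4833420G17Rik*. The number of genes past the threshold was less stable. It was 9 with all libraries, 21 without a filter beyond 1 count, 21 with at least 10 counts in every library, 627 with DESeq2, 1 with knockout replicates 1 and 2 summed (chosen after seeing the data), and 0 to 395 with 1 culture left out, the highest without wildtype replicate 2. Within 5 Mb of *Nnt* it was 2 with all libraries, 4 with DESeq2, 0 with the sum and 0 to 4 with 1 culture left out. The list of *Nnt* gave 0 to 1 with 1 culture left out, that of *Fgf10* gave 1 with DESeq2, and the substrain list gave 0 with the sum and 0 to 3 with 1 culture left out. The cause was not tested.

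Same-numbered cultures correlated at 0.193, -0.217 and 0.076 in their deviations from the genotype means. With 3 cultures per genotype these correlations cannot decide whether same-numbered cultures were prepared together. Not every culture correlated best with its own number. With a replicate block, 2 genes in all, 0 within 5 Mb of *Nnt* and 0 of the substrain list passed the threshold. An exact two-sided permutation test of 3 against 3 cultures cannot go below 0.1, and the low counts of *Fgf10* in knockout and of *Ccl28* in wildtype cells limit their precision.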

Other observations

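Among the 11126 genes that averaged 100 normalized counts or more, the profiles over the 6 libraries most like that of *Nnt*, by root mean square distance of centred log2 values, were those of *Pir* (0.167), *Fgf11* (0.189) and *Sh3d21* (0.196). For *Gm7120* they were *Ptprn* (0.187), *Tgfbi* (0.194) and *Lrrc3* (0.293), and for *Fgf10* they were *Svip* (0.358), *Wdfy1* (0.411) and *Glrb* (0.460). Of these 9 genes, *Tgfbi* also lies on chromosome 13. Over that chromosome 481 genes were tested and 3 passed edgeR's adjusted threshold, 1 lower and 2 higher in knockout cells, beside 0.0668% of all genes tested. *Nnt* and *Gm7120* were among these 3 and were chosen with this comparison known, so nothing is read from the count. The median over these 481 log2 fold changes was -0.06.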
